A study of Mus musculus with 2 samples.

Results

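Broad H3K4me1 regions are described here: the 1017 regions of at least 10 kb on the autosomes of mouse pre-B cells. They were chosen by their length, the end minus the start of each region in the authors' list, from 46934 autosomal regions (2.17%) and 48130 regions in all. Because length is a measured value, the lengths below are a description and carry no test. Chromosome X, with 19 regions of this length among its 1194, was outside the rule, and chromosome Y had 0.

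The study mapped H3K4me1, histone H3 carrying a single methyl group on lysine 4, by chromatin immunoprecipitation and sequencing (ChIP-seq) with the antibody Ab8895. Pre-B cells were purified from the bone marrow of B6.RAG-/- mice with a rearranged IgM transgene, labelled RAG-/-µ+ in source and RAG1-/- in genotype; the mice were 6 to 14 weeks old and of both sexes. The 2 samples were 1 H3K4me1 library of 50945360 sequence tags, whose regions form the list, and 1 input library made without antibody. Both shared the Rag deletion and the transgene, so a wild-type pre-B cell was not part of the comparison. Whether mice were pooled, and how many, is not given in the labels. The cell type could not be checked against its marker genes, because the list holds positions only and no gene positions on its genome build, mm9, were used.

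H3K4me1 is laid down at enhancers, where it can precede activation, and on the flanks of active promoters, whose centres carry H3K4me3 instead. The main enzymes at enhancers are the methyltransferases Kmt2c and Kmt2d. Enhancers often lie in groups around genes that define a cell's identity, and dense groups are known as stretch enhancers or super-enhancers. Super-enhancers are usually defined by the strength of other signals, such as H3K27 acetylation or Mediator binding, which were not measured here.

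The broad regions covered 15.1 Mb of mm9, which is 14.0% of all autosomal bases in H3K4me1 regions and 0.629% of the autosomal span between first and last regions. Their median length was 13.1 kb, with 25th and 75th percentiles of 11.2 and 16.1 kb. The lengths thinned out steadily: 694 regions were shorter than 15 kb, 197 measured 15 to under 20 kb, 95 measured 20 to under 30 kb and 31 reached 30 kb or more. The threshold fell in a continuous series of lengths. The 3 members just inside it measured 10008 bases (chromosome 18, 65051486 to 65061493), 10010 bases (chromosome 7, 139993676 to 140003685) and 10015 bases (chromosome 5, 104400739 to 104410753). The 3 regions just outside it measured 9999 bases on chromosome 7 (120432649 to 120442647), 9999 on chromosome 6 (38668164 to 38678162) and 9995 on chromosome 1 (182279651 to 182289645). All positions are those of mm9, counted from 1.

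The comparison class was the 14095 autosomal regions of 1000 to 2000 bases, which covered 20.3 Mb. With 1 library there was no replicate error to set a difference against, so no p-value is given for any comparison below. Wilson 95% intervals on shares cover counting error only and treat regions as independent, which neighbouring regions are not. The surroundings of a region took no part in the length rule, but they come from the same library and the same calling step.

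Broad regions were found on every autosome, most densely on chromosome 11 and most sparsely on chromosome 18. Chromosome 11 held 92, or 0.776 per Mb of span, followed by chromosome 19 with 0.636 (37 regions) and chromosome 17 with 0.531 (49 regions). Chromosome 18 held 17, or 0.194 per Mb, below chromosome 6 with 0.246 (36 regions) and chromosome 3 with 0.253 (39 regions). Over the 19 autosomes the number was 0.434 ± 0.139 per Mb (mean ± SD, taken over chromosomes and not over replicates). The ratio of chromosome 11 to chromosome 18 was 3.99, with a counting interval of 2.38 to 6.70 that does not allow for picking the extremes of 19.

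The order resembled that of H3K4me1 regions of any length. Regions of any length differed 1.99-fold in density between the densest and sparsest autosome, and across the 19 autosomes the rank correlation between their density and that of broad regions was 0.865. This is a description, since the broad regions are part of both counts. As a share of the chromosome's own regions, broad regions made up 1.25% on chromosome 18 to 2.60% on chromosome 13, and chromosome 11, at 2.59%, was 2.08 times chromosome 18. On 17 of the 19 autosomes the Wilson interval held the autosomal share of 2.17%. The other two were chromosome 18, with 17 of 1362 regions (interval 0.781 to 1.99%), and chromosome 6, with 36 of 2675 (1.35%, interval 0.974 to 1.86%). Both lay below the autosomal share.

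**Figure D1:**
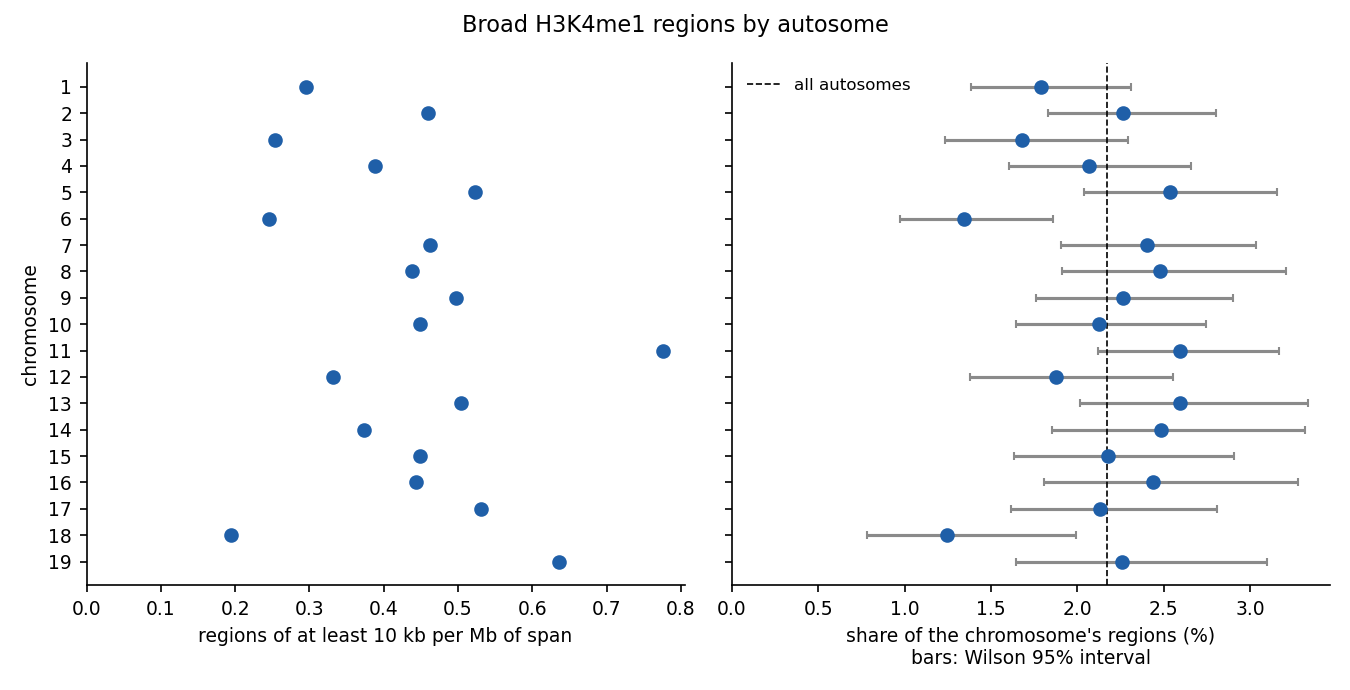
Broad H3K4me1 regions on each of the 19 autosomes. The left panel plots the number of regions of at least 10 kb per Mb of span, from 0.194 on chromosome 18 to 0.776 on chromosome 11; the right panel plots their share of the chromosome's regions in percent, with Wilson 95% intervals as bars and the autosomal share of 2.17% as a dashed line, which 17 of the 19 intervals include.

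Chromosome 11 held the longest broad region of the autosomes, 68.4 kb from 118040105 to 118108472. Its 2 flanks of 50 kb were filled alike, 32.2% on the left and 28.6% on the right, by 11 smaller regions. The shortest broad region of that chromosome, 10.2 kb from 98316454 to 98326607, had 12.1% on its left and 59.0% on its right. On chromosome 18 the longest broad region was 26.6 kb (35991034 to 36017626) with 27.2% of its surroundings marked. The shortest was the 10008-base member named above, with 25.3% of its surroundings marked and no other broad region within 9979 kb. The median length of broad regions ran from 12.3 kb on chromosome 3 to 14.0 kb on chromosome 1. The rule keeps every median above 10 kb, which limits how far the medians can differ. The longest member ran from 20.7 kb on chromosome 3 to 68.4 kb on chromosome 11.

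Broad regions lay closer to other broad regions than regions of 1 to 2 kb did. The median gap from a broad region to the nearest other one, edge to edge, came to 112.7 kb, and the middle part of the gaps ran from 21.4 to 661.5 kb (25th to 75th percentile). From regions of 1 to 2 kb, the median gap to the nearest broad region was 502.8 kb (152.9 and 1590 kb). Another broad region lay within 10 kb of 167 broad regions (16.4%, interval 14.3 to 18.8%), beside 3.47% of regions of 1 to 2 kb (3.18 to 3.78%). Within 100 kb the shares were 48.7% (495 of 1017, interval 45.6 to 51.7%) and 18.9% (2661 of 14095, interval 18.2 to 19.5%). The classes came closer at longer range: within 1000 kb the shares were 81.2% and 65.1%. Regions just under the threshold were close to the shortest broad regions in this. At 8 to under 10 kb the median gap to a broad region was 205.7 kb, with 39.4% within 100 kb. For broad regions of 10 to under 12 kb these values were 211.0 kb and 41.4%.

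The order within 100 kb was the same on 18 of 19 autosomes. The exception was chromosome 18, where 11.8% of the 17 broad regions and 14.0% of the regions of 1 to 2 kb had a broad region within 100 kb. At a threshold of 15 kb the share of broad regions with another such region within 100 kb was 28.2%, beside 7.12% for regions of 1 to 2 kb. At 20 kb the shares were 21.4% and 3.03%. Fewer regions pass a higher threshold, so by construction the share of regions of 1 to 2 kb cannot rise there. The share of broad regions could have gone either way, because the regions counted change along with the threshold.

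**Figure D2:**
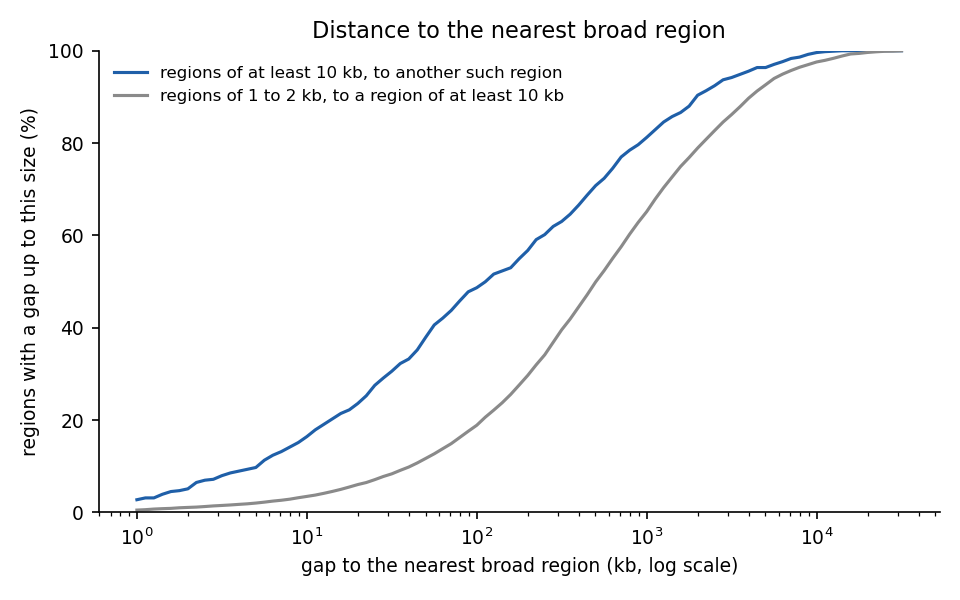
Cumulative share of regions, in percent, by the gap to the nearest broad region in kb on a log axis, for broad regions (to another broad region) and for regions of 1 to 2 kb. At a gap of 100 kb the curves stand at 48.7% and 18.9%, and the curve of broad regions lies above the other over the whole range until both near 100%.

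Some broad regions were direct neighbours with no region between them. There were 65 such pairs, which took in 128 broad regions (12.6%), and their median gap was 2.32 kb. In 14 pairs the gap was at most 1 kb and in 44 at most 5 kb. The closest pair lay on chromosome 15, where a region of 11.8 kb (63861545 to 63873384) and one of 12.5 kb (63873896 to 63886385) were 511 bases apart. The next lay on chromosome 5, with 12.9 kb (137095831 to 137108682) and 14.2 kb (137109196 to 137123435) set 513 bases apart. Both gaps are near 499 bases, the shortest gap anywhere on the autosomes. At the other extreme, the broad region of 18.2 kb on chromosome 1 from 74836927 to 74855145 had no other within 13.5 Mb, although 7 smaller regions lay within 50 kb of it.

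Linking broad regions over gaps of up to 50 kb gave 165 runs of at least 2 members. They held 386 of the 1017 broad regions (38.0%), and the other 631 were solitary. Most runs were short: 119 had 2 members, 38 had 3, 6 had 4 and 2 had 5. The number of runs depended on the linking gap, with 107 runs at up to 20 kb. In the 46 runs of 3 or more members, a median of 73.5% of the bases from the first to the last broad region was marked. Such shares are raised by construction, because a run begins and ends with a broad region and its gaps between broad regions are limited. The same holds for the runs named next.

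The run with the most marked bases among those of 5 members lay on chromosome 13, from 30715009 to 30856214. Its 5 broad regions of 13.3 to 21.6 kb and 8 smaller regions covered 73.5% of 141.2 kb. The other run of 5, on chromosome 11 from 22659951 to 22775472, had 4 smaller regions between its members and was 76.1% covered over 115.5 kb. Of the 6 runs of 4, the 3 whose broad regions cover the most bases are described next. On chromosome 7, 4 broad regions from 71037565 to 71189581 ranged from 11.0 to 44.0 kb in length, with 12 smaller regions among them. The run of 4 on chromosome 4, from 44889078 to 44985203, was built almost only from broad regions, with 1 smaller region between them and 76.2% of its 96.1 kb in the broad ones alone. A run of 4 on chromosome 1 (158857221 to 158981382) was 65.2% covered over 124.2 kb. No gene was assigned to these runs.

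**Figure D3:**
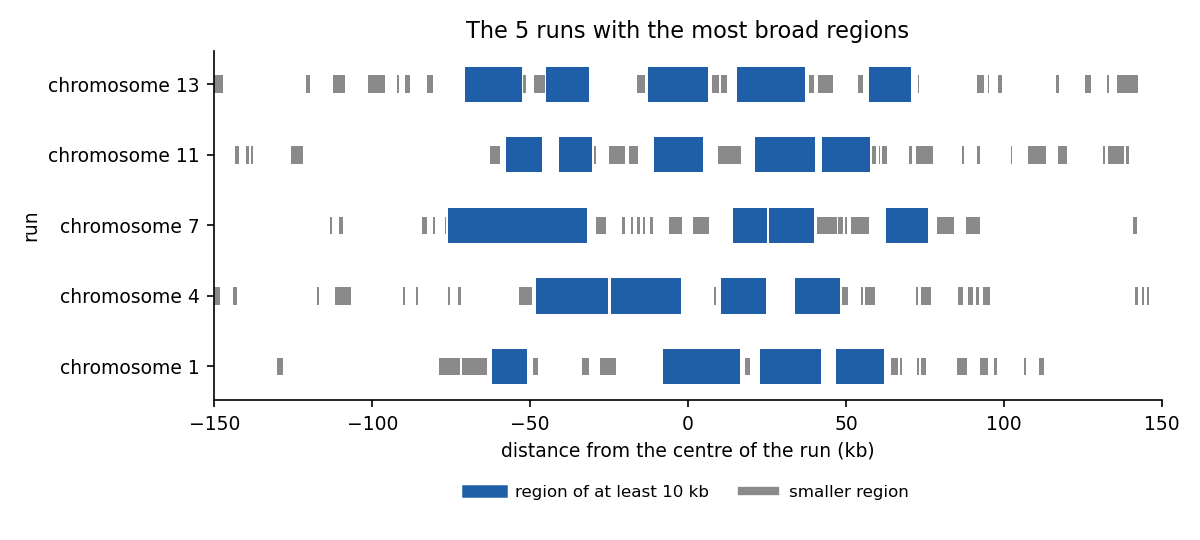
Map of the 5 runs with the most broad regions, with ties among the 6 runs of 4 settled by the bases their broad regions cover, drawn by distance in kb from the centre of each run, 150 kb to either side. Tall blue bars are regions of at least 10 kb and low grey bars are smaller regions; the runs on chromosomes 13 and 11 have 5 broad regions and those on chromosomes 7, 4 and 1 have 4, and on chromosome 7 the leftmost broad region is the longest, at 44.0 kb.

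Smaller H3K4me1 regions flanked nearly every broad region. Counting regions under 10 kb with a midpoint within 50 kb of either edge, broad regions had a median of 7 (25th and 75th percentiles 5 and 10, highest 20). Regions of 1 to 2 kb had a median of 5 (3 and 7, highest 19). The means were 7.60 and 5.08, and the mean was higher around broad regions on 19 of 19 autosomes. At least 10 smaller regions surrounded 26.9% of broad regions and 9.59% of regions of 1 to 2 kb. Only 1 broad region (0.0983%) had no smaller region within 50 kb, beside 658 regions of 1 to 2 kb (4.67%). Within 10 kb the means were 1.93 and 1.23, and 113 broad regions (11.1%) had none, beside 27.9%. Regions just under the threshold had similar counts. Within 50 kb, regions of 8 to under 10 kb had a median of 7 and a mean of 7.30, beside 7 and 7.33 at 10 to under 12 kb.

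By median gap, the direct neighbours of broad regions were closer on both sides than those of regions of 1 to 2 kb. The median gap on the nearer side was 1.58 kb for broad regions and 2.84 kb for regions of 1 to 2 kb. On the farther side the classes stood further apart, at 7.60 and 23.3 kb. Gaps of up to 1 kb on the nearer side were about as common in both, at 31.0% and 27.1%. Neighbours within 10 kb on both sides were found for 57.1% of broad regions and 27.2% of regions of 1 to 2 kb. At 8 to under 10 kb the median nearer and farther gaps were 1.66 and 9.36 kb, beside 1.58 and 9.39 kb at 10 to under 12 kb.

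The direct neighbours of broad regions were somewhat longer than those of regions of 1 to 2 kb. Of the 2034 direct neighbours of broad regions, counted on both sides, the median length was 1981 bases, and it was 1470 bases for the neighbours of regions of 1 to 2 kb. A length of at least 5 kb was reached by 19.96% of the neighbours of broad regions and by 7.55% of the others, and at least 10 kb by 6.39% and 1.65%. The shortest length of the list, 501 bases, was as common beside broad regions (13.7%) as beside regions of 1 to 2 kb (13.3%). Broad regions thus had both long direct neighbours and the usual share of the shortest ones. Among all smaller regions within 50 kb the lengths differed less, with medians of 1684.5 bases around broad regions and 1534 around regions of 1 to 2 kb. Up to 1 kb were 31.2% and 31.1% of these, and at least 5 kb were 12.8% and 7.72%.

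The surroundings of broad regions were more fully marked. Of the 100 kb around a broad region, 50 kb beyond each edge with the region itself left out, a median of 23.9% lay in other H3K4me1 regions (25th and 75th percentiles 13.9 and 34.2%, lowest 0, highest 75.1%). Around regions of 1 to 2 kb the median was 9.46% (4.16 and 17.8%, lowest 0, highest 77.4%), a difference of 14.5 percentage points. For scale, regions covered 4.49% of the whole autosomal span. The ranges of both classes overlapped almost entirely, and 140 broad regions (13.8%) lay below the median of regions of 1 to 2 kb. At least 20% of the surroundings was marked for 618 broad regions (60.8%, interval 57.7 to 63.7%) and for 20.5% of the others (19.8 to 21.1%). At least 50% was marked for 56 (5.51%, interval 4.26 to 7.08%) and 0.844% (0.706 to 1.01%).

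The difference in medians pointed the same way on 19 of 19 autosomes, from 9.78 points on chromosome 12 to 23.0 on chromosome 8 (14.5 ± 3.62, mean ± SD over chromosomes). It was smaller against regions of 1 to 2 kb in the same megabase of the genome. Over 565 windows of 1 Mb that held both classes, the median of the differences was 6.05 points, and broad regions had the higher median in 407 windows (72.0%) and the lower in 158. The comparison regions there had a median of 13.1% of their surroundings marked, above the 9.46% over all autosomes. Windows with a broad region held a median of 40 regions of any length, beside 13 in windows that held regions but no broad one. A window with more regions has more chances to hold a broad one, and broad regions are counted in the 40. A difference in this direction would thus arise even if broad regions were spread evenly among all regions.

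The marked share was highest at 5 to 10 kb from the edge and declined beyond that distance. In the first 5 kb beyond an edge of a broad region, 25.1% of bases lay in other regions on average, beside 12.8% for regions of 1 to 2 kb. The next 5 kb gave the highest values, 32.9% and 13.6%. The first step is bounded by the calling, which left at least 499 bases between regions. At 45 to 50 kb the values were 21.0% and 11.7%, at 100 to 200 kb 12.2% and 9.87%, and at 500 to 1000 kb 7.61% and 7.13%. The ratio of the classes thus went from 2.42 at 5 to 10 kb to 1.07 at 500 to 1000 kb. All of these values are means over flanks. The median flank of a broad region had 18.7% marked at 5 to 10 kb and 0% in each 5-kb step from 25 to 50 kb. Beside regions of 1 to 2 kb the median was 0% in each 5-kb step out to 50 kb. With broad regions left out of the surroundings, the values at 5 to 10 kb were 27.9% and 12.3%, so most of the marked bases at that distance belonged to smaller regions.

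**Figure D4:**
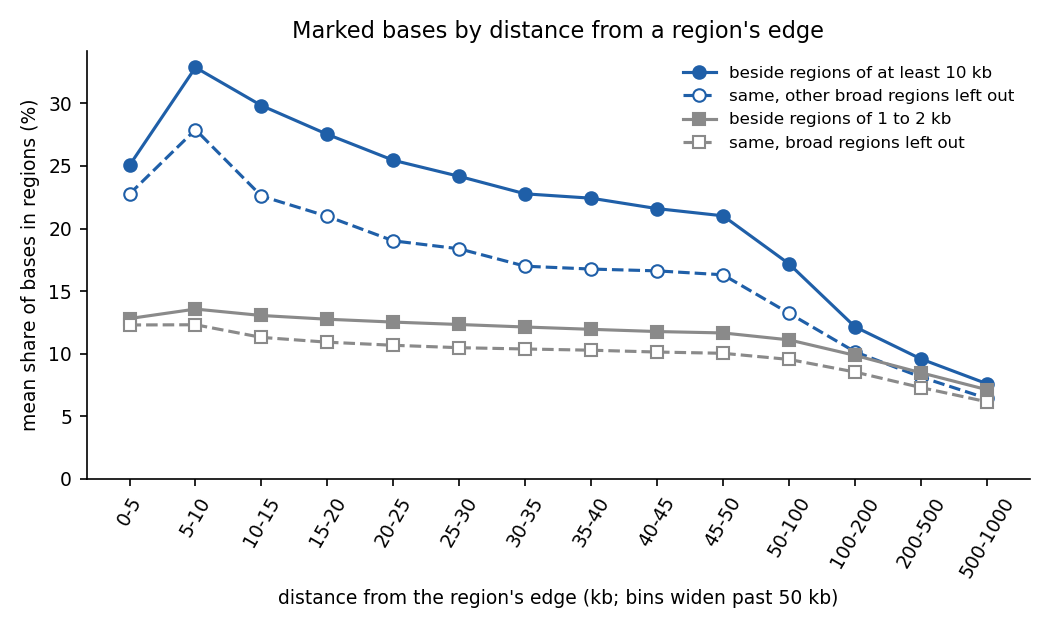
Mean share of bases, in percent, that lie in other H3K4me1 regions, by distance in kb from the edge of broad regions (blue circles) and of regions of 1 to 2 kb (grey squares); dashed lines with open markers leave broad regions out of the surroundings. The blue line peaks at 32.9% at 5 to 10 kb and comes close to the grey line past 200 kb, where the bins are wider.

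Both sides of broad regions were more fully marked than those of regions of 1 to 2 kb. The fuller side had a median of 32.9% of its 50 kb marked and the emptier side 12.5%, beside 13.8% and 4.01% for regions of 1 to 2 kb. Within a class, the fuller side exceeds the emptier by construction. Across broad regions the rank correlation between left and right was 0.128, beside 0.331 across regions of 1 to 2 kb; these are descriptions over regions of a single library that share its depth. A side with no region at all within 50 kb, beside a marked one, was less common for broad regions, at 77 of 1017 (7.57%) against 23.0%. A broad region made up a median of 37.7% of the marked bases in the stretch formed by itself and its 100 kb, and more than 50% in 26.6% of cases. For regions of 1 to 2 kb these values were 13.1% and 10.1%. The length rule itself raises the values for broad regions.

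The most fully marked surroundings belonged to the 42.3-kb region on chromosome 6 from 120548712 to 120591006, with 75.1%. Its neighbour 1.30 kb away is itself 42.5 kb long and made up all of the 85.1% on its left. On chromosome 11, the 15.7-kb region from 22706934 to 22722583 had 70.7% and is a member of the run of 5 there. A 21.6-kb region on chromosome 14 (26329257 to 26350835) had 65.3%, with 86.8% on its left and 43.7% on its right. The 12.5-kb region on chromosome 15 from 58833900 to 58846385 had 64.4%, with 94.9% on its right, where the third longest region of the autosomes (55.3 kb) begins 10.4 kb away. The 16.9-kb region on chromosome 5 from 66277714 to 66294567 had 63.4%, shared evenly between its sides (63.6 and 63.2%). All 5 had another broad region within 16.2 kb. Other broad regions count towards the coverage by which these 5 were picked, so this follows in part from the choice.

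The least marked surroundings belonged to broad regions of 11.0 to 13.8 kb. The only broad region with nothing in its 100 kb was that of 11.0 kb on chromosome 9, from 71734994 to 71746022, whose neighbours lay 51.9 and 52.4 kb away. The 11.7-kb region on chromosome 5 from 17510253 to 17521973 had 0.501%, in 1 smaller region. The 13.8-kb region on chromosome 17 (28142930 to 28156772) had 0.629%, also in 1 smaller region. The 13.2-kb region on chromosome 8 (81145374 to 81158567) had 1.00%, with 1.00% of each side marked. The 11.2-kb region on chromosome 3 (106837831 to 106849042) had 1.47%. The nearest other broad region lay 766.4 to 2922 kb away from these 5. A broad region wholly inside the 100 kb would have raised the coverage above these values, so its absence there follows from the choice.

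Surrounding coverage was higher in each longer class from 1 to 2 kb upwards and showed no step at 10 kb. Its median was 9.62% around the shortest regions, 8.83% around longer ones under 1 kb, the lowest of the classes, 9.46% at 1 to 2 kb and 11.7% at over 2 to under 5 kb. It was 16.9% at 5 to under 8 kb, 20.1% at 8 to under 10 kb and 21.3% at 10 to under 12 kb. Within the broad regions it was 24.3% at 12 to under 15 kb, 25.2% at 15 to under 20 kb and 28.8% for the 126 regions of 20 kb or more. The regions just under the threshold were thus close to the members just above it, and the quartiles of neighbouring classes overlapped widely. Across the broad regions the rank correlation between length and surrounding coverage was 0.143.

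**Figure D5:**
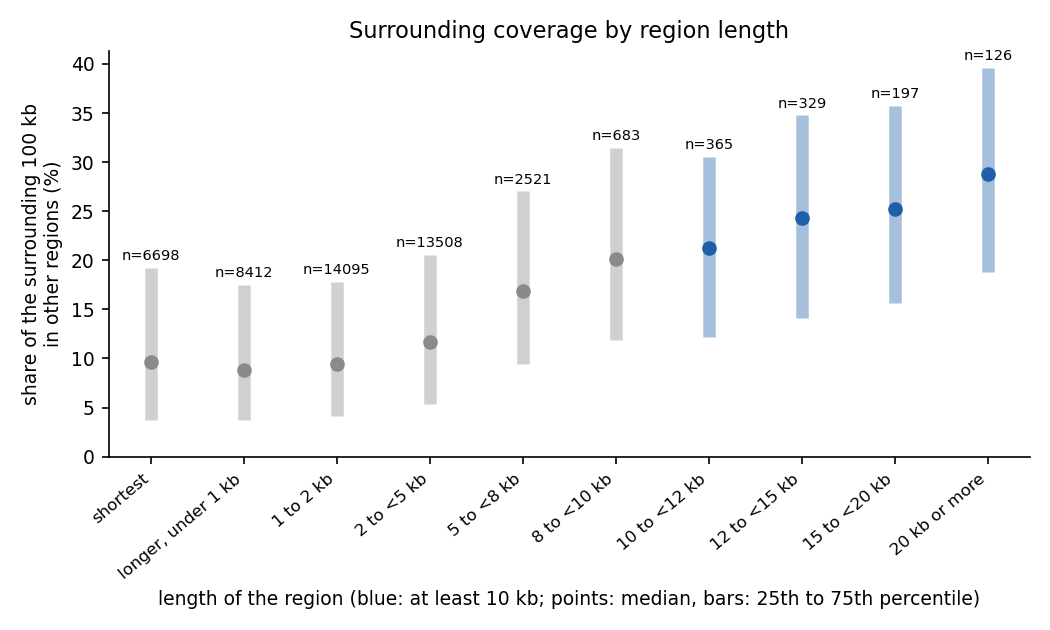
Share of the surrounding 100 kb in other H3K4me1 regions, in percent, by the length class of the region, with the median as a point, the 25th to 75th percentiles as a bar and the number of regions above it. Blue classes are the broad regions; the medians go from 9.62% for the shortest regions through 8.83% in the next class to 28.8% at 20 kb or more, with 20.1% and 21.3% on either side of the 10-kb threshold.

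Part of the marked surroundings was other broad regions. Leaving those out of both the marked and the total bases, the median was 19.9% around broad regions and 9.04% around regions of 1 to 2 kb. Solitary broad regions had a median of 17.6%, and those in runs had 22.6% with the other broad regions left out and 36.3% with them. Smaller regions were almost as numerous around both, with medians of 7 for solitary broad regions and 8 for those in runs.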

How the data were processed

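The submitters' processing notes name mm9, HOMER 4.7 and Bowtie 0.12.9. Per the file headers, HOMER's findPeaks joined enriched windows of 500 bases into regions of variable length in its histone style, at 4-fold over input. The header's fold and tag columns were not used here. In the BED file the authors deposited, the score column is 1 in every row, and start and end were the values used. Depth per region is unknown. The input entered only through the calling.

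Gaps ran edge to edge. Surrounding coverage was the share of 50 kb beyond each edge in other regions. Surrounding coverage, counts of smaller regions, gaps to the nearest broad region, runs and joining were tested on simulated data. Gaps to direct neighbours and the lengths of these neighbours were not tested in that way. Named regions followed a written rule: the largest runs, highest and lowest surrounding coverage, closest pairs, farthest region, extremes of the densest and sparsest autosome, and the threshold. Members and measures were chosen with earlier results of these data known. Alternatives covered thresholds, windows, comparison classes and joining. The gene table at hand is of another build, GRCm38.p6, so planned results on genes and base composition were not run. Python 3.11.15, numpy 2.4.6, pandas 2.3.3, scipy 1.17.1 and matplotlib 3.10.9 were used.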

Additional observations from a re-analysis of the deposited data

How the results depend on the processing

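Of 33 alternatives over 5 results, 16 stayed within the spread used for that result and 17 moved beyond it. That spread was 1 SD over autosomes, a 95% interval or 1.5 times a count. A direction turned in 0, but not all could turn. The 5 alternatives for the share within 100 kb and the 2 for runs were judged on a share or count alone. Neither can change sign, and the highest over the lowest autosome without chromosome 18 cannot fall below 1. The difference in surrounding coverage (14.5 points) was 19.3 at a threshold of 20 kb, 18.7 and 10.0 with 10 and 100 kb beyond each edge, 10.8 without other broad regions and 6.05 within the same megabase. With 1 region kept per run, an alternative chosen after seeing the data, it was 11.0. The share with another broad region within 100 kb (48.7%) was 57.8, 28.2 and 21.4% at thresholds of 8, 15 and 20 kb, and 56.4% after joining regions under 2000 bases apart, beside 31.7% of regions of 1 to 2 kb then. That joining gave 1982 broad regions in place of 1017, and 8118 regions of 1 to 2 kb in place of 14095. Runs numbered 107 at a linking gap of 20 kb in place of 165. The difference in the mean number of smaller regions (2.52) was 3.14 and 3.30 at 15 and 20 kb, 1.73 for regions of at least 1 kb, and 0.693, 1.53 and 3.75 with 10, 25 and 100 kb beyond each edge, where the window sets the count by construction. Chromosome 11 over chromosome 18 (3.99) was 2.08 as a share of regions. Without chromosome 18, also chosen after seeing the data, the highest over the lowest autosome was 3.15. No paired analysis was possible because each group had 1 library and only the H3K4me1 library has a list of regions. Tags per region were not used, so how far a broad region lay above the calling limits is not known.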

Other observations

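Broad regions fell into 570 of the 1989 autosomal windows of 1 Mb that held any region midpoint (28.7%). Of these windows, 323 held 1 broad region, 134 held 2, and 113 held 3 or more; these 113 held 426 of the broad regions (41.9%). The same counts were not made for other lengths. The windows with most, chosen after their values were seen, lay on chromosome 11 (88000001 to 89000000) with 8 broad regions among 48 regions, and on chromosome 8 (125000001 to 126000000) and chromosome 9 (57000001 to 58000000) with 7 each, among 81 and 60 regions. On chromosome 11 the 8 broad regions covered 108.5 kb of the window.

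The place of a region in the deposited list was also looked at. The file's header names tag counts but does not say by what the list is ordered. The list begins with broad regions: all of the first 100 places were held by them, and 848 of the first 1017. Places were counted over the whole list. The 19 regions of at least 10 kb on chromosome X also take places there and are not counted as broad. Over all regions the rank correlation between place and length was -0.97, and among broad regions it was -0.81. Within the broad regions, 173 stood past place 1000 and 13 past place 2000. The latest, chosen after the fact, was a 10.1-kb region on chromosome 7 (111438626 to 111448757) at place 3070, while by length it ranks 1007 in the list. The earliest region under 10 kb, also chosen after the fact, was one of 7.84 kb on chromosome 17 (6513378 to 6521215) at place 170. Among the 365 broad regions of 10 to under 12 kb, the 183 standing earlier had a median of 22.7% of their surroundings marked and the 182 standing later had 19.1%, at median lengths of 10.9 and 10.7 kb. What the place measures was not tested.

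The number at the end of each region's name had similar medians in both classes, 28465 for broad regions and 28206 for regions of 1 to 2 kb. Its rank correlation with length was 0.042 among broad regions and -0.16 over all regions. The shortest regions had a higher median number, 37987.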
